A study of Mus musculus with 16 samples.

Results

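The VEGF and angiopoietin families were followed through 10 genes: the ligand genes Vegfa, Vegfb and Vegfc, the VEGF receptor genes Flt1, Kdr and Flt4, the Tie receptor genes Tek and Tie1, and the angiopoietin genes Angpt1 and Angpt2. They were chosen by name, and each had 1 row of its own among the 19938 genes measured. The samples were mouse livers of the C57BL/6 background, 7 labelled Pdgf-c transgenic and 9 labelled wildtype, each hybridised to an Affymetrix Mouse Gene 1.0 ST array. Stromal cells is the cell type given in the labels, but their protocol extracts RNA from the liver, and rows of hepatocyte genes such as Alb (a mean of 13.54 in transgenic and 13.56 in wildtype arrays on the log2 scale) were bright, so the values are treated here as whole liver. The labels name neither the promoter that drives the transgene nor the age, and leave unsaid whether each sample is a different animal. The p-values therefore reflect the spread among these 16 samples, which may be technical.

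VEGF ligands are secreted growth factors that act on receptor tyrosine kinases of endothelial cells. Kdr (VEGFR-2) carries most of the signal of Vegfa, Flt1 (VEGFR-1) binds Vegfa and Vegfb tightly but signals weakly and is also made as a soluble decoy, and Flt4 (VEGFR-3) is the receptor of Vegfc and is known for lymphatic growth. Angiopoietins act on Tek (TIE2), with Angpt1 as the activating ligand, Angpt2 as a context-dependent antagonist and Tie1 as a partner receptor without a high-affinity angiopoietin ligand. In liver, hepatocytes are a main source of Vegfa, and the fenestrated sinusoidal endothelium carries Kdr and Flt4.

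Kdr and Flt4 fell in the transgenic livers while Flt1 rose, so the VEGF receptor genes did not move together. Among the ligands Vegfc rose, and Vegfa and Vegfb did not pass the test. None of the Tie receptor or angiopoietin genes passed it. A gene is named as called, risen or fallen where limma's p-value, adjusted with Benjamini-Hochberg over all 35557 rows, was at most 0.05. By that rule 2 of the 10 genes were higher and 2 lower, beside 23.2% of all genes called (12.1% higher and 11.1% lower) and 18.9% of all rows. In 4 of the 10 genes the ranges of the groups were apart, which occurred in 9.08% of all genes. The median difference over the 10 genes was 0.05 and that over all genes was -0.04 on the log2 scale. Of all called genes 52.3% were higher as deposited, 43.8% after quantile normalization and 35.7% with arrays centred on their medians, while the 4 calls kept their direction under each scaling.

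**Figure D1:**
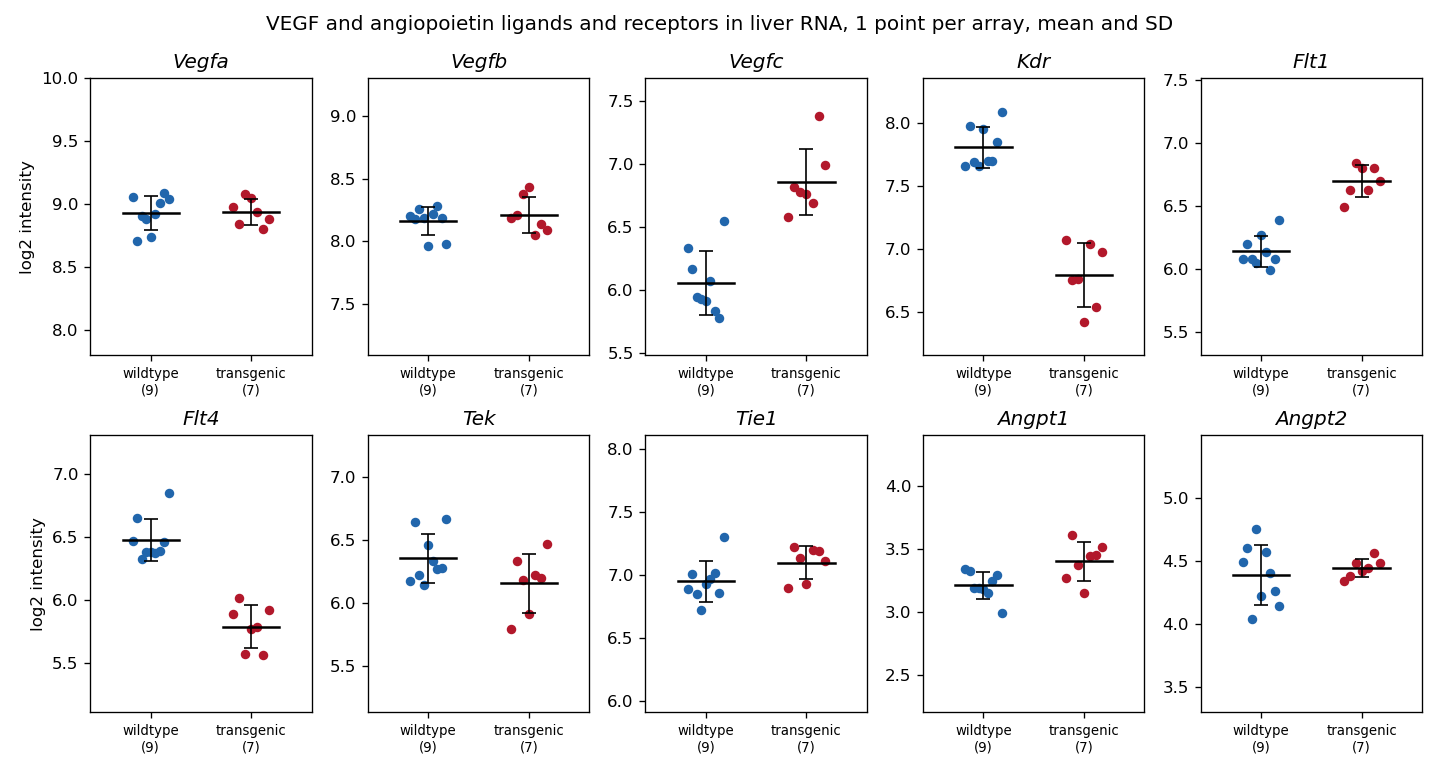
Log2 intensity of each of the 10 genes on 9 wildtype and 7 transgenic arrays, 1 point per array, with the mean as a line and the SD as a bar; every panel spans the same number of log2 units around its own centre. The groups are apart in Vegfc, Kdr, Flt1 and Flt4 and overlap in the other 6 genes.

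The 3 VEGF receptor genes are shown by the stretch of DNA before 1 RefSeq transcript start of each, because these are the members of 1 receptor family that moved in different directions. Each line gives the 250 bases 5′ to 3′ on the gene's strand, from RefSeq promoters on GRCm38.p6, and capitals mark the core that hypoxia-inducible factors bind (ACGTG or GCGTG on either strand). The windows are chr5:75978456-75978705 on the minus strand for Kdr, chr5:147726012-147726261 on the minus strand for Flt1 and chr11:49609429-49609678 on the plus strand for Flt4. Those of Kdr and Flt1 lie inside the gene spans given below, which reach further upstream than the start used. Only the Flt4 window lies directly before its gene span.
Kdr: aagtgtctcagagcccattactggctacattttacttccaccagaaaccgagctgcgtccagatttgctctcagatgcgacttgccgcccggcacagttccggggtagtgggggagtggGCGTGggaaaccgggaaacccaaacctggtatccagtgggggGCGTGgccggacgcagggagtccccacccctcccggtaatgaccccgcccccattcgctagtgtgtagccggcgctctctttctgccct
Flt1: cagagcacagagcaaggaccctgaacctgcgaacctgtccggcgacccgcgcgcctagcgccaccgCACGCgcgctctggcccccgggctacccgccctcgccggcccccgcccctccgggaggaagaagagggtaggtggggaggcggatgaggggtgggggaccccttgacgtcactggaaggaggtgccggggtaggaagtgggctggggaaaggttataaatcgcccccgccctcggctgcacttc
Flt4: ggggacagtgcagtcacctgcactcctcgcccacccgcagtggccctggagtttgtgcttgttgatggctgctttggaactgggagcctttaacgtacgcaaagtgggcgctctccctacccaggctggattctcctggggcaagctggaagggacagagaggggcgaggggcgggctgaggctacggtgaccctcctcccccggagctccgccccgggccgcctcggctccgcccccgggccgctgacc

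The Kdr window held 2 such cores, 131 and 89 bases before the start, the Flt1 window held 1, 184 bases before it, and these letters were not in the Flt4 window. Among 32851 promoter windows of that length, 38.6% held at least 1. The GC box GGGCGG was found 2 times for Kdr, 3 times for Flt1 and 3 times for Flt4, against 32.7% of windows with at least 1. A core of ETS factors, which act widely in endothelium (CCGGAA or CAGGAA), was found once for Kdr and not in the other two windows, against 35.1% of all windows. GATA cores (AGATAA or TGATAA, 16.6% of windows) were in none of the 3, and the TATA box (TATAAA, 12.4%) was in the Flt1 window alone, 31 bases before its start. All motifs were searched on both strands, and none of those searched contains another. Promoter windows were found for 8 of the 10 genes, 9 windows in all, of which 4 held a hypoxia core, 7 a GC box and 4 an ETS core. These matches are descriptions of letters and not sites of binding.

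Kdr, at chr5:75932827-75979072, encodes the main signalling receptor of Vegfa. Its log2 intensity ran from 6.42 through a median of 6.76 to 7.07 over the 7 transgenic arrays, and from 7.66 through 7.70 to 8.09 over the 9 wildtype arrays. Every transgenic array lay below every wildtype array, with a gap wider than the SD of either group (0.25 and 0.16). The difference was -1.01 ± 0.0976 (SE), or 2.02-fold lower (95% interval -1.22 to -0.80; limma adjusted p = 5.53e-07). Over all genes, 50 fell by at least as much, Kdr included.

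Flt4, at chr11:49609679-49652739, encodes the receptor of Vegfc. Transgenic arrays ranged from 5.56 to 6.01 with a median of 5.78, and wildtype arrays from 6.32 to 6.85 with a median of 6.39. The groups were again apart, and the fall was 1.61-fold (-0.69 ± 0.0852, 95% interval -0.87 to -0.51; limma adjusted p = 1.06e-05). Flt1, at chr5:147561604-147726438, encodes the high-affinity receptor that exists in membrane and soluble forms, which 1 row cannot tell apart. Its transgenic arrays ranged from 6.49 to 6.84 (median 6.70) and its wildtype arrays from 5.99 to 6.39 (median 6.08). The lowest transgenic array exceeded the highest wildtype array, a rise of 1.47-fold (0.56 ± 0.0666, 95% interval 0.42 to 0.70; limma adjusted p = 6.98e-06).

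Vegfc, at chr8:54077532-54186454, encodes the ligand of Flt4 that drives lymphatic growth. It ranged from 6.58 through a median of 6.78 to 7.38 in the transgenic group and from 5.78 through 5.94 to 6.55 in the wildtype group. The groups did not overlap, though the lowest transgenic array (6.58, array 1) lay just above the highest wildtype array (6.55, array 9). Vegfc rose 1.74-fold (0.80 ± 0.121, 95% interval 0.54 to 1.06; limma adjusted p = 9.32e-05).

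Vegfa, at chr17:46016993-46032377, encodes the principal angiogenic ligand of Flt1 and Kdr. Its transgenic arrays lay between 8.80 and 9.08 (median 8.94), all inside the wildtype range of 8.71 to 9.09 (median 8.92). The difference was 0.01 ± 0.0612, with a 95% interval from -0.12 to 0.14 (limma adjusted p = 0.948). Vegfb, at chr19:6982472-6987651, encodes a ligand of Flt1 alone among these receptors. It ranged from 8.05 to 8.43 (median 8.19) in transgenic and from 7.96 to 8.28 (median 8.19) in wildtype arrays, a difference of 0.05 ± 0.064 with an interval from -0.09 to 0.18 (limma adjusted p = 0.681). For both ligands the groups overlapped, with 5 transgenic arrays of Vegfb inside the wildtype range and 2 above it.

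Tek, the angiopoietin receptor gene at chr4:94739086-94874976, ranged from 5.79 through 6.20 to 6.47 in transgenic and from 6.14 through 6.28 to 6.67 in wildtype arrays. Transgenic arrays 1 and 4 lay below all wildtype arrays and the other 5 inside their range. The difference was -0.20 ± 0.102 (95% interval -0.42 to 0.02; limma adjusted p = 0.212). Tie1, its partner receptor gene at chr4:118471191-118489849, ranged from 6.90 to 7.22 (median 7.14) in transgenic and from 6.72 to 7.30 (median 6.93) in wildtype arrays. Its difference was 0.15 ± 0.0739 (95% interval -0.01 to 0.31; limma adjusted p = 0.191). Wildtype array 9 was the highest of all 16 arrays for Tie1, and without it the difference was 0.19 (limma adjusted p = 0.0395).

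Angpt1, at chr15:42424667-42676977, encodes the activating ligand of Tek, which mural and stellate cells secrete. Its row was dim, with transgenic arrays from 3.15 through 3.44 to 3.61 and wildtype arrays from 2.99 through 3.19 to 3.34, and both group means lay under the 20th percentile of the deposited values (3.45). At that intensity the background correction sets much of the value. The difference was 0.19 ± 0.0752 (95% interval 0.03 to 0.35; limma adjusted p = 0.0918), and 5 of 7 transgenic arrays were above the highest wildtype array. Without transgenic array 4, the lowest of its group, it was 0.23 (limma adjusted p = 0.0375), and with all values under the 20th percentile set to it, 0.03 (limma adjusted p = 0.342). Angpt2, at chr8:18690263-18741562, encodes the ligand released by activated endothelium. Transgenic arrays between 4.34 and 4.56 (median 4.44) all fell inside the wildtype range of 4.04 to 4.75 (median 4.40), and the difference was 0.06 ± 0.0933 (95% interval -0.14 to 0.26; limma adjusted p = 0.739).

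**Figure D2:**
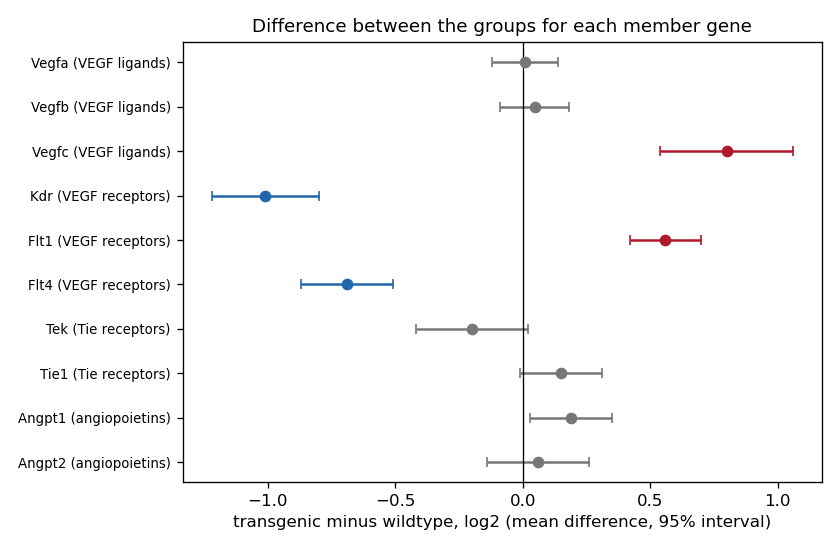
Mean difference between transgenic and wildtype arrays for each of the 10 genes on the log2 scale, with its 95% interval as a bar; red marks called higher, blue called lower and grey not called. Kdr (-1.01) and Flt4 (-0.69) lie to the left of 0, Vegfc (0.80) and Flt1 (0.56) to the right, and the other 6 lie between -0.20 and 0.19.

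Whether 2 genes changed by different amounts was tested on their difference within each array, with a two-sided exact permutation test over 11440 splits of the 16 arrays and Benjamini-Hochberg adjustment over 15 pairs. The smallest p the design allows is 8.74e-05 (adjusted 1.87e-04 here). Kdr changed by 1.57 log2 units less than Flt1 (-1.57 ± 0.136, SE), at that smallest p (exact permutation). Kdr minus Flt1 lay below its wildtype mean in 7 of 7 transgenic arrays. The fall of Kdr also exceeded that of Flt4 by 0.33 (-0.33 ± 0.0953; exact permutation p = 5.24e-04, adjusted 7.87e-04). Kdr minus Flt4 again lay below its wildtype mean in 7 of 7 transgenic arrays, though the groups overlapped. Flt1 minus Flt4 differed by 1.25 ± 0.111 at the smallest p. For Flt1 against Kdr and against Flt4, the groups were already apart in opposite directions gene by gene. Full separation of these within-array differences followed from that in advance, so these 2 tests add only the size of the difference.

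The same test set the receptors against Cdh5, the vascular endothelial cadherin, which itself differed by -0.06 ± 0.0665 (limma adjusted p = 0.569). Kdr stood at -0.95 ± 0.0729 and Flt4 at -0.62 ± 0.0771 relative to Cdh5, and Flt1 at 0.62 ± 0.073, each without overlap of the groups and at the smallest p of the exact permutation test. Tie1 stood at 0.21 ± 0.0765 (exact permutation p = 0.0123, adjusted 0.0154), with Tie1 minus Cdh5 above its wildtype mean in 6 of 7 transgenic arrays. Tek stood at -0.13 ± 0.087 (exact permutation p = 0.110, adjusted 0.126), and at -0.18 without transgenic array 2 (adjusted p = 0.0240). Tek and Tie1, the paired receptors, differed in change by -0.34 ± 0.0686 (exact permutation p = 3.50e-04, adjusted 5.83e-04), although neither passed the test alone. Tek minus Tie1 lay below its wildtype mean in 7 of 7 transgenic arrays, though the groups overlapped. Against Pecam1, the adhesion molecule of endothelium and platelets that rose 1.27-fold, Kdr stood at -1.36 ± 0.141, and against Tek at -0.82 ± 0.123, both at the smallest p of the exact permutation test. Of the markers Cdh5 and Pecam1, Flt1 (0.56 ± 0.0666) and Tie1 (0.15 ± 0.0739) were set against Cdh5 alone. Whether either changed by a different amount from Pecam1 (0.35 ± 0.0929) was not tested.

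**Figure D3:**
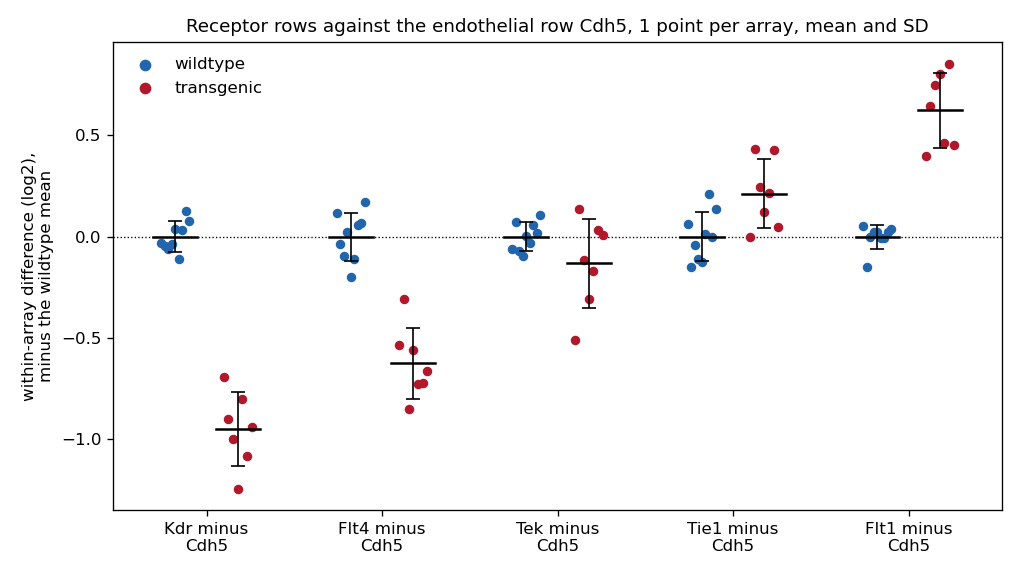
Within-array log2 difference between each receptor row and the Cdh5 row, shifted so that the wildtype mean is 0, 1 point per array with mean and SD, for 9 wildtype and 7 transgenic arrays. Kdr and Flt4 fall below all wildtype points, Flt1 rises above them, and Tek and Tie1 overlap them.

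Among the ligands, Vegfc changed more than Vegfa (Vegfa minus Vegfc -0.79 ± 0.157; exact permutation p = 1.75e-04, adjusted 3.28e-04) and more than Vegfb (Vegfb minus Vegfc -0.75 ± 0.163; exact permutation p = 6.12e-04, adjusted 8.34e-04). Each difference lay below its wildtype mean in 7 of 7 transgenic arrays. The groups were apart for Vegfa minus Vegfc and overlapped for Vegfb minus Vegfc. Vegfa and Vegfb differed in change by -0.04 ± 0.0644 (exact permutation p = 0.585), and Angpt2 and Angpt1 by -0.13 ± 0.0932 (exact permutation p = 0.194, adjusted 0.208), which turned to 0.03 (adjusted p = 0.792, exact permutation) with values under the 20th percentile set to it, where much of Angpt1 lies.

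The spread of the genes within a group was compared for 8 pairs in each group, 16 relations in all, with exact permutation p-values adjusted over them. Across the 9 wildtype arrays Kdr and Flt1 varied together (Pearson's r = 0.88, exact permutation p = 0.00248, adjusted 0.0255; Spearman's rho = 0.75, exact permutation p = 0.0255, adjusted 0.136), and r was 0.74 without the 2 arrays farthest from the median of Kdr. Across the 7 transgenic arrays the sign was the other way (r = -0.74, exact permutation p = 0.0609, adjusted 0.139; rho = -0.57, exact permutation p = 0.200), and r was -0.59 without the 2 farthest arrays. The difference between these 2 correlations was not tested. Tek and Tie1 varied together in wildtype arrays (r = 0.80, exact permutation p = 0.00318, adjusted 0.0255; rho = 0.75, exact permutation p = 0.0255, adjusted 0.136), with r = 0.58 without the 2 farthest. In transgenic arrays r was 0.81 (exact permutation p = 0.0403, adjusted 0.107; rho = 0.64, exact permutation p = 0.139), and it turned to -0.40 without the 2 farthest arrays, so that relation rests on them.

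Wildtype array 9 was the highest of its group in 6 of the 10 genes, namely Vegfc, Kdr, Flt1, Flt4, Tek and Tie1, and the lowest in Angpt1. Without it r was 0.79 for Kdr and Flt1 (adjusted p = 0.131, exact permutation) and 0.66 for Tek and Tie1 (adjusted p = 0.201, exact permutation), so neither relation passed the threshold over the other wildtype arrays. No other relation passed after adjustment, including those of Vegfa with Kdr (wildtype r = -0.26, exact permutation p = 0.499; rho = -0.10, exact permutation p = 0.810) and of Vegfc with Flt4 (wildtype r = 0.79, exact permutation p = 0.0183, adjusted 0.0586; rho = 0.42, exact permutation p = 0.270). Angpt1 and Tek gave r = 0.85 over the transgenic arrays (exact permutation p = 0.0167, adjusted 0.0586; rho = 0.89, exact permutation p = 0.0123, adjusted 0.136). Whether differences in quality between arrays move these rows together was not tested.

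**Figure D4:**
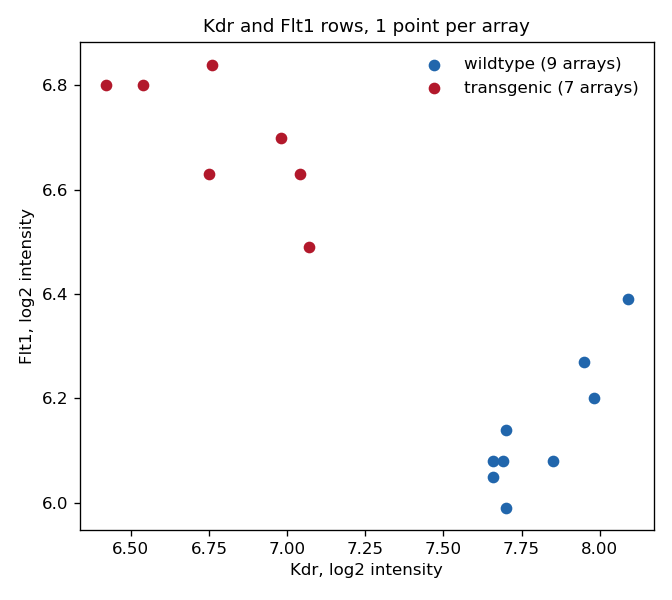
Log2 intensity of Kdr (x axis) against Flt1 (y axis), 1 point for each of 9 wildtype and 7 transgenic arrays. Flt1 is higher where Kdr is higher among the wildtype points (r = 0.88) and lower where Kdr is higher among the transgenic points (r = -0.74), and the groups form separate clusters.

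The other ligands, co-receptors and partners of the pathway were measured in 12 of 12 cases, of which 2 rose and 3 fell, with a median of -0.02. Beside the counts of this and the following lists, 12.1% of all genes were called higher and 11.1% lower. No list was tested against these shares. Ptprb, the endothelial phosphatase VE-PTP that acts on Tek and Kdr, fell 1.95-fold (-0.96 ± 0.0823; limma adjusted p = 1.23e-07), with transgenic arrays from 6.80 to 7.23 below wildtype arrays from 7.81 to 8.28. Svep1, a large matrix protein that binds Tie1, rose 4.81-fold (2.26 ± 0.0774; limma adjusted p = 7.50e-13), with transgenic arrays from 6.86 to 7.28 and wildtype arrays from 4.58 to 5.11. Neuropilin 2, Nrp2, a co-receptor of Flt4, fell by 0.29 ± 0.0645 (limma adjusted p = 0.00372), whereas its relative Nrp1, a co-receptor of Kdr, differed by -0.24 ± 0.0839 (limma adjusted p = 0.0535). The proteoglycan gene Sdc2 was the third that fell (-0.17 ± 0.0515), and the integrin chain Itgb1 rose (0.29 ± 0.0638). The remaining ligand genes of the families did not pass: Pgf, which binds Flt1, differed by 0.02 ± 0.0953, Vegfd by 0.21 ± 0.0937 and Angpt4 by 0.06 ± 0.0945.

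Vegfc is made as a precursor that Ccbe1 and the protease Adamts3 help to mature. Of 8 such processing genes 1 rose and 2 fell (2 rose without transgenic array 1, also with wildtype array 9 left out beside it, and 1 fell without transgenic array 4 or 6 or after quantile normalization). The one that rose was Ccbe1, 1.49-fold (0.57 ± 0.0845; limma adjusted p = 6.99e-05), from 6.50 to 7.05 in transgenic against 5.98 to 6.33 in wildtype arrays. Adamts3 differed by 0.14 ± 0.0854 (limma adjusted p = 0.297), and the convertase genes Pcsk7 and Furin fell by 0.28 ± 0.048 and 0.16 ± 0.0469.

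Of 23 measured genes that carry the receptors' signal inside the cell, 1 rose and 1 fell, beside 12.1% and 11.1% of all genes. The kinase gene Prkcb rose (0.42 ± 0.0702, limma adjusted p = 2.67e-04) and the adaptor gene Nck1 fell (-0.25 ± 0.0694, limma adjusted p = 0.0139). After quantile normalization or with arrays centred on their medians 2 genes of this list fell, and with transgenic array 1 and wildtype array 9 left out 2 rose. Plcg1, the phospholipase that Kdr activates, differed by 0.01 ± 0.0638, and Nos3, the endothelial nitric oxide synthase, by 0.15 ± 0.0787. The median over that list was 0.01. Of 16 genes of tip cells and of the response to VEGF 8 rose and 1 fell, with a median of 0.28, beside 12.1% and 11.1% of all genes; the difference from other lists was not tested. The netrin receptor gene Unc5b rose 2.22-fold (1.15 ± 0.0738), adrenomedullin, Adm, 1.89-fold (0.92 ± 0.108), the chemokine receptor gene Cxcr4 1.84-fold (0.88 ± 0.107) and the membrane protease gene Mmp14 1.54-fold (0.63 ± 0.0715). Which liver cells carry the RNA of the genes that rose was not determined, and a response of endothelium to VEGF was not tested. The Notch ligand gene Dll4, which VEGF induces in tip cells, was the one that fell (-0.36 ± 0.0847; limma adjusted p = 0.00537), and the tip cell genes Esm1 and Apln differed by -0.03 ± 0.171 and 0.01 ± 0.0734.

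Vegfa is a target of hypoxia-inducible factors, and 22 hypoxia factors and targets were measured. Of these 3 rose and 3 fell, with a median of -0.03; 5 fell after quantile normalization. Epas1, the factor HIF-2 alpha that is abundant in endothelium, rose 1.51-fold (0.59 ± 0.0856; limma adjusted p = 5.84e-05), and Hif1a differed by -0.20 ± 0.0872 (limma adjusted p = 0.136). The glucose transporter gene Slc2a1 fell (-0.39 ± 0.0956), while Pfkfb4 and P4ha1 rose by 0.36 ± 0.092 and 0.31 ± 0.0956. Among 11 secreted inhibitors of angiogenesis, 6 rose and 4 fell, with a median of 0.57. Pf4, the platelet factor, rose by 2.32 ± 0.0807, thrombospondin 2, Thbs2, 2.72-fold (1.44 ± 0.066), Sparc 2.66-fold (1.41 ± 0.0887) and Timp3, which blocks binding of VEGF to Kdr, 2.31-fold (1.21 ± 0.0953). The 4 that fell, Agt, Hrg, Serpinf1 and Plg, are made by hepatocytes and ranged from -0.50 to -0.18.

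**Figure D5:**
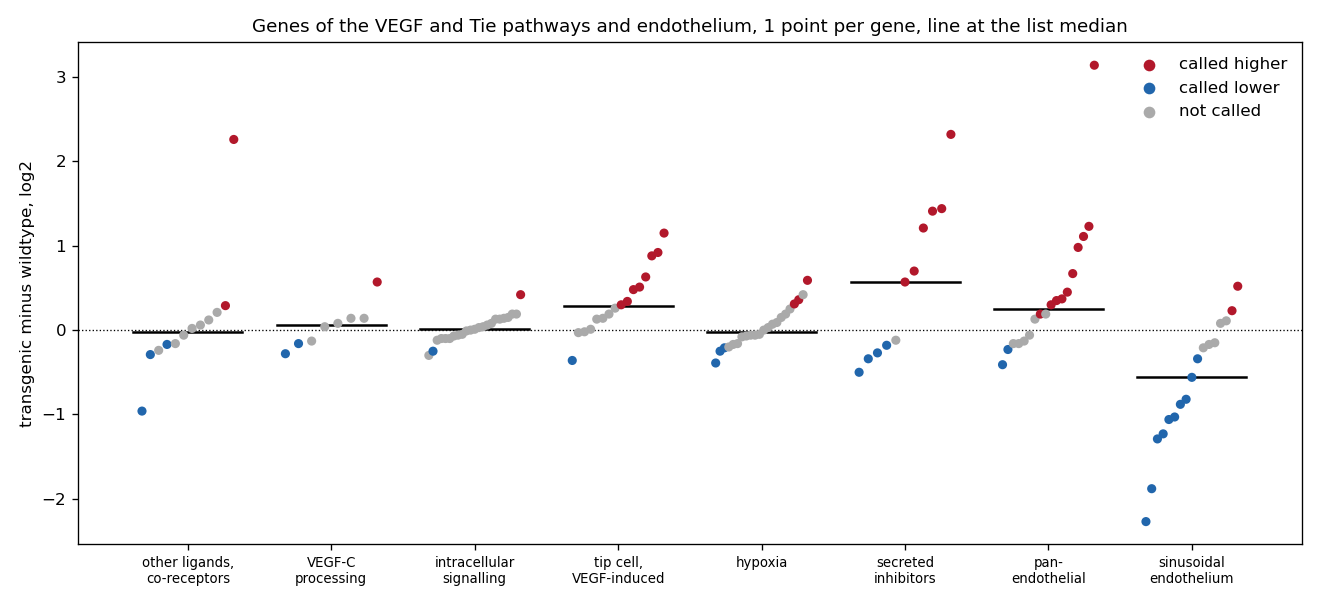
Difference between transgenic and wildtype means on the log2 scale for each gene of 8 lists, 1 point per gene, red for called higher, blue for called lower and grey for not called, with a line at the list median. Medians run from -0.56 in the sinusoidal list to 0.57 among secreted inhibitors.

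In whole liver, fewer endothelial cells and less RNA per cell cannot be told apart, so markers of the vessel types were read beside the receptors. Of 18 pan-endothelial genes 10 rose and 2 fell, with a median of 0.25. Cd34 rose 8.83-fold, Emcn 2.34-fold, Cd93 2.16-fold, Eng 1.97-fold and Vwf 1.36-fold. The rise of Cd34 (3.14) was the largest of the list, and which liver cells carry its RNA was not determined. The 6 genes not called, Cdh5, Esam, Icam2, Mmrn2, Aqp1 and Podxl, ranged from -0.16 to 0.19. The 2 that fell were the tight junction gene Cldn5 (-0.41 ± 0.103; limma adjusted p = 0.00801) and the guidance receptor gene Robo4 (-0.23 ± 0.0547; limma adjusted p = 0.00512), the latter with the groups apart. The list's mean ran from 6.91 to 7.26 in transgenic and from 6.56 to 6.81 in wildtype arrays. Sinusoidal genes went the other way, with 10 of 17 lower and 2 higher and a median of -0.56. The falls of Clec4g (-2.27 ± 0.128), Dnase1l3 (-1.88 ± 0.107), F8 (-1.29 ± 0.104) and Gpr182 (-1.23 ± 0.0828) were the largest of that list, and its mean ran from 6.21 to 6.44 in transgenic and from 6.92 to 7.13 in wildtype arrays. The 2 that rose were Rspo3 (0.52 ± 0.0791, limma adjusted p = 9.25e-05) and Gata4 (0.23 ± 0.0517, limma adjusted p = 0.00361). Stab1 (-0.21), Lyve1 (-0.17), Cd209b (-0.15), Maf (0.08) and Wnt9b (0.11) were not called. Kdr and Flt4 therefore fell beside the sinusoidal list, and Flt1 rose beside the pan-endothelial list. The part of either list in these differences was not tested.

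Of 6 lymphatic genes, the usual setting of Vegfc and Flt4, 3 rose and none fell. The 3 were Reln (1.03 ± 0.129), which stellate cells also express, Flrt2 (0.77 ± 0.117) and the dim Mmrn1 (0.35 ± 0.0999), whereas the defining genes Prox1, Pdpn and Lyve1 differed by -0.20 ± 0.151, 0.10 ± 0.0759 and -0.17 ± 0.126 and did not pass. On rows above the table median 1 of the 3 was tested and higher. The list's mean ran from 6.01 to 6.18 in transgenic and from 5.66 to 5.96 in wildtype arrays. Of 11 arterial and venous genes 3 rose and 2 fell, with Vcam1 at 1.00 ± 0.141, Gja5 at 0.43 ± 0.108, Nr2f2 at 0.32 ± 0.0899 and Ackr1 at -0.45 ± 0.0786. Of 15 endothelial transcription factors 4 rose and 2 fell (1 fell with transgenic array 2, 3, 4, 6 or 7 left out, or with wildtype array 3 or 6 left out), among them Fli1 at 0.62 ± 0.0803, Mef2c at 0.60 ± 0.0733, Elk3 at 0.45 ± 0.0646 and Erg at -0.35 ± 0.0829.

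Genes of other liver cell types were read in the same way. Of 17 mural and stellate cell genes 11 rose and 1 fell. The rises went from 0.58 ± 0.133 for Acta2, the smooth muscle actin, to 3.17 ± 0.102 for Pdgfra, with Pdgfrb at 2.02 ± 0.0881, Cygb at 1.81 ± 0.106 and Abcc9 at 1.73 ± 0.0971. The pericyte gene Rgs5 was the one that fell (-1.17 ± 0.129; limma adjusted p = 2.96e-06), and Cspg4, Notch3, Myh11 and Cnn1 differed by -0.10, 0.07, 0.05 and -0.13 and did not pass. The list's mean ran from 6.76 to 6.99 in transgenic and from 5.89 to 6.19 in wildtype arrays. Of 11 Kupffer cell and macrophage genes 5 rose, led by Cx3cr1 (4.59-fold), and 5 fell, led by Cd5l (-2.83 ± 0.296) and Clec4f (-2.70 ± 0.184). That list's mean ran from 6.42 to 7.17 in transgenic and from 6.81 to 7.56 in wildtype arrays. Of 11 hepatocyte genes 1 rose and 4 fell, led by Otc (-0.51 ± 0.0487), and the 1 that rose, Apoa1, lost its call when transgenic array 1, 3 or 4 was left out, or wildtype array 1, 4 or 7. Among 6 platelet genes Pf4 and Ppbp (1.10 ± 0.164) rose and Itga2b fell by 0.18 ± 0.06, a fall that was not called without transgenic array 3, 4, 5 or 6 or without any single wildtype array other than array 3. The other platelet genes, Gp9 (0.09), Tubb1 (0.00) and Treml1 (0.09), were not called. None of 5 cholangiocyte genes was called by limma or had an unadjusted p under 0.05 (0 of 5). The part of these cell types in the differences of Vegfc, Kdr, Flt1 and Flt4 was not tested.

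The genes whose profile over the 16 arrays was nearest to that of each called member were found by the root-mean-square distance of values centred on each gene's own mean, among 11498 genes brighter than the table median. Nearest to Kdr were Oit3 and Ptprb, at distances of 0.161 and 0.171 log2 units and with differences between the groups of -0.88 ± 0.0818 and -0.96 ± 0.0823. Nearest to Flt4 were Creb3l3 (distance 0.134) and Pxmp4 (0.142), and nearest to Flt1 were Ldhb (0.0665) and Aebp1 (0.0835). Vegfc lay nearest to Abhd2 (0.158) and to Kcnj8 (0.160), a potassium channel gene of mural cells. The likeness rests mainly on the difference between the groups, which all these genes share with the member they were matched to.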

How the data were processed

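The authors deposited log2 intensities made with GCRMA, per the submitters' processing notes, a method that models background from probe sequences before normalizing and summarising. Its version and settings are not given in the sources used here, and the log base was read from the range of 0.710 to 14.7. Of 35557 rows, 21789 carried 1 gene symbol in the platform annotation, and the row with the highest mean stood for each of 19938 genes. Coordinates of genes and promoter windows are those of RefSeq on GRCm38.p6.

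The comparison of groups used limma 3.58.1 (R 4.3.3; eBayes with trend, two-sided, 14 residual degrees of freedom, no filter), with Benjamini-Hochberg adjustment over all rows and a threshold of 0.05. Differences are transgenic minus wildtype, and 95% intervals use the fit's SE and 14 degrees of freedom. On simulated data with 35557 rows calls were made for 54% of 50 rows raised 1.25-fold, 84% of those raised 1.5-fold and 100% of those raised 2-fold or 4-fold, with 12 false calls. The raised rows were drawn from rows with a mean above the table median (5.26). These shares therefore do not cover dimmer rows such as those of Angpt1 and Angpt2. The number of arrays limits the precision.

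The members and the 16 lists were chosen with earlier results of these data known. The rule named the members, up to 4 called genes per list by size, Pecam1, Cdh5, Cd34 and Vwf, and the 2 genes nearest to each called member. Genes named beyond it, such as Nrp1, Pgf, Plcg1, Dll4, Hif1a and Prox1, were chosen after their values were seen. Some genes stand in more than 1 list: Cdh5, Reln, Lyve1 and Pf4. Scan dates and scanner files were not analysed here.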

Additional observations from a re-analysis of the deposited data

Results flagged for a closer look

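Over the 20 group values of the 10 member genes, no array stood apart from its group by Dixon's test at the 95% level. Across all rows, however, wildtype array 9 lay far from the other arrays on the second principal component (-54.39), which held 11.53% of the variance. Transgenic array 1 lay at its other end (28.76). For that reason these 2 arrays were left out together in 1 of the settings below. Among 114 group values of the other named genes 5 held 1 array apart from the rest, all wildtype, which is no more than the 1 in 20 groups that chance gives. Array 9 was highest for Itgb1 (9.82, next 9.67) and for Dnase1l3 (8.18, next 7.89), and array 5 for Unc5b (5.58, next 5.29). Array 8 was lowest for Cd93 (5.25, next 5.55) and array 4 for Fli1 (5.42, next 5.75).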

How the results depend on the processing

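The calls of Vegfc, Kdr, Flt1 and Flt4 and their directions held under all 28 alternative settings, which covered scaling (quantile, median centring), dim rows (rows above the table median, a floor at the 20th percentile), the rows tested (1 symbol, gene means), the variance model (eBayes with no trend, eBayes robust, array weights), the replicate block, its 14 arrays unblocked, each array left out, and the pair of transgenic array 1 with wildtype array 9 left out. Over these settings Kdr ranged from -1.06 to -0.95, Flt4 from -0.76 to -0.64, Flt1 from 0.49 to 0.62 and Vegfc from 0.71 to 0.91. Vegfa (-0.04 to 0.05) and Vegfb (-0.00 to 0.07) were called under none of them by limma, and neither was Tek (-0.28 to -0.10). Angpt1 (0.03 to 0.23) and Angpt2 (0.01 to 0.10) had no value on rows above the table median; over the other 27 settings Angpt2 was called in none and Angpt1 without transgenic array 4 alone. The difference in change between Angpt2 and Angpt1 turned from -0.13 to 0.03 with the floor. The same replicate number did not pair samples of the 2 groups (correlations of deviations from -0.02 to 0.09 over 7 numbers). With the replicate block on 14 arrays 3 genes were higher and 2 lower, the added one being Tie1 (0.18, adjusted p = 0.0482), which was also called without wildtype array 9 and without that array and transgenic array 1 together (0.22, adjusted p = 0.0123). The change of Tek relative to Cdh5 passed without transgenic array 2 (-0.18 in a range of leave-one-out values from -0.18 to -0.07). Wildtype relations of Kdr with Flt1 (0.79) and of Tek with Tie1 (0.66) were no longer past the threshold without wildtype array 9. The last 2 array sets without a block, and the relations without wildtype array 9, were chosen after the data were seen. With the replicate block 1 hypoxia gene was lower in place of 3 and 3 Kupffer genes were higher in place of 5. Under it 1 endothelial transcription factor and 1 Vegfc processing gene were lower in place of 2, and no signalling gene and no platelet gene was lower and no hepatocyte gene higher in place of 1. The same 14 arrays without the block also gave 1 lower Vegfc processing gene, no lower platelet gene and no higher hepatocyte gene. Apoa1 also lost its call with arrays centred on their medians, with eBayes without trend, with gene means and without transgenic array 1 and wildtype array 9. On rows above the table median (5.26) 1 arterial or venous gene was lower in place of 2. It was a different gene, because the 2 of the main fit, Ackr1 (mean 4.62) and Efnb2 (mean 5.16), lay under that median and were left out. The cause of the other changes between settings was not tested.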
